A study of Mus musculus with 12 samples.

Results

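The Fc receptor genes are the 6 genes Fcgr1, Fcgr2b, Fcgr3, Fcgr4, Fcer1g and Fcgrt, taken by symbol. All 6 were found, on 11 of the 34945 probe sets that carry a single gene symbol, among 18193 genes in all. They were measured on 12 Affymetrix arrays, 1 for each mouse, with RNA from CD11c+ lung cells taken with magnetic beads. There were 4 groups of 3 mice: IFNAR-/- mice at day 7, wildtype mice at day 7, IFNAR-/- mice at day 14 and wildtype mice at day 14 after Pneumocystis, a lung fungus, was given into the trachea. IFNAR-/- mice lack the receptor for type I interferons. Every mouse was infected, so there is no uninfected level, and the strain, age and sex of the mice and the altered part of the receptor gene are not given in the labels. The labels give the cells' purity as above 90%, with lymphocytes under 5%. The study asked whether type I interferon signals in these cells after infection, and whether that matters for the inflammation as clearance begins.

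Fc receptors bind the constant part of antibodies and so join antibody-coated particles to phagocytes. Fcgr1 encodes the high-affinity IgG receptor CD64, and Fcgr3 and Fcgr4 encode lower-affinity activating receptors. All of these signal through the shared gamma chain, encoded by Fcer1g, which carries an activation motif (ITAM) that recruits the kinase Syk. Fcgr2b encodes the inhibitory receptor, whose motif (ITIM) recruits the phosphatase SHIP1. Fcgrt encodes the heavy chain of the neonatal Fc receptor, which pairs with beta-2 microglobulin, binds IgG and albumin in acidic endosomes and returns them to the cell surface. Fcgr1 and Fcgr4 are known as genes that interferon can induce in macrophages. Fcgr2b, Fcgr3, Fcgr4 and Fcer1g lie on chromosome 1, Fcgr1 on chromosome 3 and Fcgrt on chromosome 7, while Ifnar1 lies on chromosome 16.

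The stretches just before the start of 3 of these genes are shown because interferon response is the study's question and these receptors differed in how they followed genotype and time. Each is the 250 bases before the RefSeq gene start, 5′ to 3′ on the gene's strand (build GRCm38.p6). Capitals mark letters of 3 motifs searched on both strands: the GAS motif TTCNNNGAA of interferon-activated STAT factors, the interferon-stimulated response core (GAAA, any 2 bases, GAAA), and the GAGGAA core bound by PU.1, a macrophage transcription factor.
Fcgr1, chr3:96293970-96294219, minus strand: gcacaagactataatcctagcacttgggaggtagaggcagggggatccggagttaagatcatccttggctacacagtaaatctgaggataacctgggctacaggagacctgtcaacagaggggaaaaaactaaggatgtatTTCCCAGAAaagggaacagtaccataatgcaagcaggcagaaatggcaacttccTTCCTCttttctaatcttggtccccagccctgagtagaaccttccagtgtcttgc
Fcgr4, chr1:171018676-171018925, plus strand: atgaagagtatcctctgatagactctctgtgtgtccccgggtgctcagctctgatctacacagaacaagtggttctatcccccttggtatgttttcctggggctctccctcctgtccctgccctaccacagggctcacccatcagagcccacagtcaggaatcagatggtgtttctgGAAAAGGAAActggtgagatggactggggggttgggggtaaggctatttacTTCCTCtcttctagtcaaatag
Fcgr2b, chr1:170976072-170976321, minus strand: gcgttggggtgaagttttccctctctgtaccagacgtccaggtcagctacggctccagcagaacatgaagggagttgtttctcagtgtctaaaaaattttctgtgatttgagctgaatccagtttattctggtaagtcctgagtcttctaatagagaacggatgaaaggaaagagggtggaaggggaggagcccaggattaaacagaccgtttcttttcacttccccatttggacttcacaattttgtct
The Fcgr1 window holds 1 GAS match, TTCCCAGAA, and the reverse of the PU.1 core. The Fcgr4 window holds 1 response core match, GAAAAGGAAA, and also the reverse of the PU.1 core. None of the 3 motifs was found in the Fcgr2b window, nor in those of Fcer1g and Fcgrt. Fcgr3 held the reverse of the PU.1 core before each of its 2 listed starts, whose windows overlap and share this same site. No motif matches overlapped in the windows shown. Of all 32851 windows of this length, 7.02% held the GAS letters, 2.98% the response core and 23.3% the PU.1 core. A match of letters is a description of the window and does not show binding.

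Each value below is a log2 ratio, with 0 at that gene's own median of the 12 arrays. A gene's arrays can be set against each other, but no gene's level against another gene's. Ifnar1 was at -0.53, -1.38 and -0.26 in IFNAR-/- and 0.08, 0.64 and 0.07 in wildtype arrays at day 7, and at 0.10, -1.01 and 0.39 in IFNAR-/- and -0.15, 0.07 and 0.11 in wildtype arrays at day 14. Averaged over both days it differed by -0.59 ± 0.25 (SE), with a limma adjusted p of 0.263. Whether its probe sets lie in the altered part is not known. Irf7, an interferon-induced transcription factor, was lower in IFNAR-/- cells at day 7 by a log2 difference of -2.59 ± 0.36 (limma adjusted p 0.00433). Among the arrays 2 were taken as standing apart. That of IFNAR-/- day 7 mouse 3 carried the Y-linked Eif2s3y at 2.89 and high lung epithelial and endothelial markers, with medians of 2.64 and 2.66, and in that of IFNAR-/- day 14 mouse 2 the ratios spread most, with 0.582 between the quartiles. Wildtype day 7 mouse 1 also had high epithelial and endothelial markers, at 1.37 and 2.02. The 5' over 3' signal of control genes, a sign of RNA integrity, was lowest in wildtype day 14 mouse 3, at -0.912. These other arrays were kept in the fits without both arrays that stood apart. Because only ratios were deposited, the presence of CD11c and of other defining markers cannot be checked as a level.

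At day 7 the inhibitory receptor Fcgr2b and the high-affinity receptor Fcgr1 were lower in IFNAR-/- cells than in wildtype cells, and the neonatal receptor Fcgrt was higher. These 3 of the 6 genes passed the threshold (limma, adjusted p under 0.05), where 2.64% of all 18193 genes did. Higher was 1 of the 6, against 1.29% of all genes, and lower were 2, against 1.35%. The arrays of the genotypes did not overlap for 5 of the 6, all but Fcer1g, against 24.0% of all genes. The median log2 difference was -0.46 over the 6 genes and -0.001 over all genes. At day 14 none of the 6 passed, where 5.04% of all genes did, 1.75% higher and 3.29% lower. By limma at an unadjusted p under 0.05 there were 2, Fcgr1 and Fcgrt, against 21.0% of all genes. The arrays did not overlap for 2 of the 6 at day 14, Fcgr1 and Fcgr2b, against 23.4% of all genes, and the median difference was 0.04 over the 6 genes and 0.003 over all genes. In bulk RNA, fewer cells of a type that holds a transcript and less transcript per cell cannot be told apart.

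**Figure D1:**
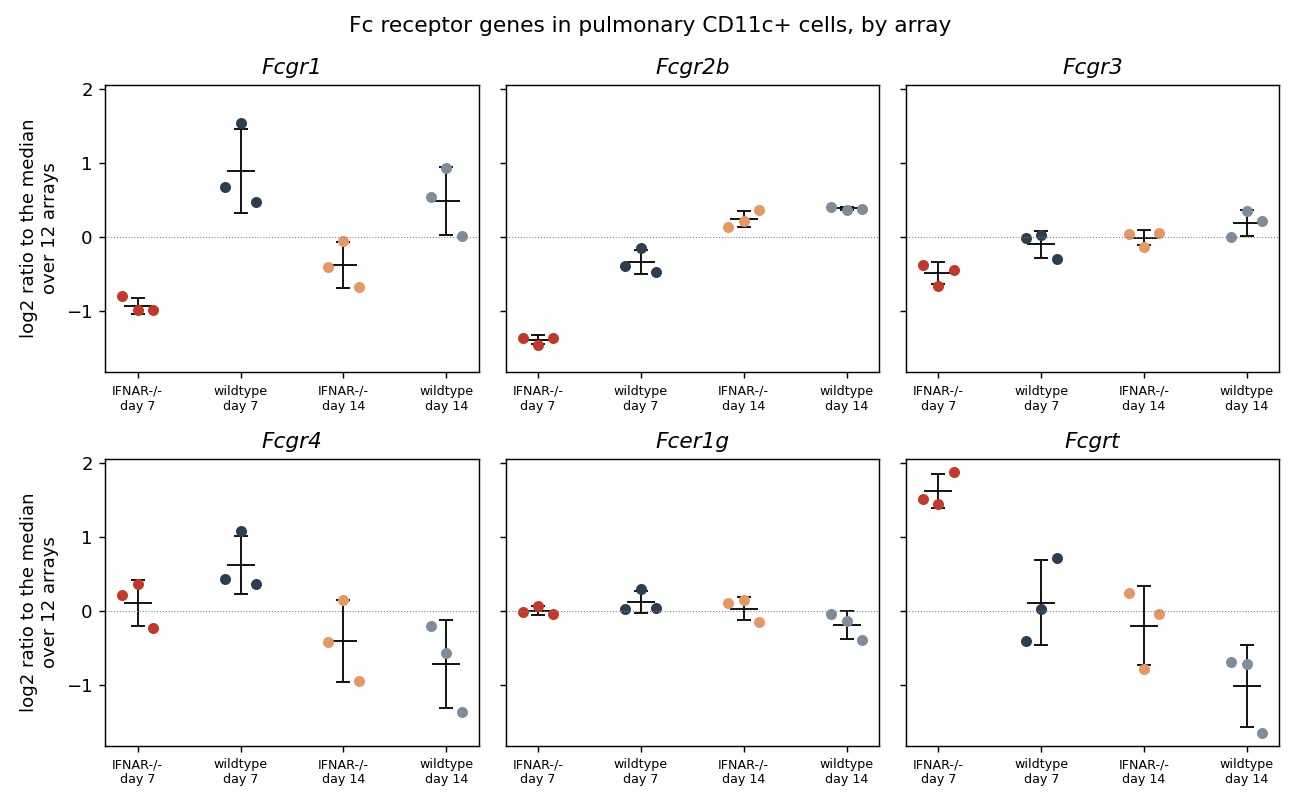
Each panel plots 1 Fc receptor gene as the log2 ratio to its median over the 12 arrays. Points are arrays (1 mouse each), and bars give the mean and SD of 3 arrays. The lowest Fcgr2b points are the IFNAR-/- day 7 arrays, between -1.46 and -1.36, and the highest Fcgrt points are the same arrays, between 1.45 and 1.88.

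Fcgr2b, the inhibitory IgG receptor, was at -1.37, -1.46 and -1.36 in IFNAR-/- arrays at day 7, against -0.39, -0.15 and -0.47 in wildtype arrays. At day 14 it was at 0.14, 0.22 and 0.36 in IFNAR-/- arrays, against 0.41, 0.37 and 0.38 in wildtype arrays. Each group had a narrow range, and the IFNAR-/- arrays lay below the wildtype arrays on both days, by a wide gap at day 7 and narrowly at day 14. The log2 difference at day 7 was -1.06 ± 0.10 (SE, n = 3 arrays per group), a level 0.480 times that of wildtype cells, with a limma adjusted p of 0.000506. It ranked 17 by p among all genes at that day. Over 17 alternatives, single probe sets aside, the day 7 difference lay between -1.21 and -0.77. The limma adjusted p ran from 4.82e-05 to 0.0488. At day 14 the difference was -0.15 ± 0.10 and did not pass (limma adjusted p 0.472). The difference was smaller in size at day 14 than at day 7, by a tested change of 0.91 ± 0.15 (limma adjusted p 0.0134). Fcgr2b was the only 1 of the 6 whose genotype difference changed between days by this test, where 2.48% of all genes passed and 1.14% did so in its direction.

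Fcgr2b rose with time in both genotypes. Day 14 minus day 7 was 1.64 ± 0.10 (SE) in IFNAR-/- cells, a 3.11-fold rise with a limma adjusted p of 2.47e-05, and 0.72 ± 0.10 in wildtype cells, a 1.65-fold rise with an adjusted p of 0.00294. In IFNAR-/- cells it ranked 3 by p among all 18193 genes. These time changes share arrays with the genotype comparisons. Neither the day 7 difference nor either rise lost its direction in any fit that left out an array, and all of these fits passed. The rise in wildtype cells did not pass with a trended and robust prior (0.72 ± 0.25, limma adjusted p 0.103). The change between days did not pass with that prior (0.91 ± 0.36, 0.197), with quantile normalization (0.68, 0.133), with a 5' to 3' covariate (0.83 ± 0.20, 0.196) or with the poly-A spike-in signal as covariate (0.95 ± 0.20, 0.0524). Single probe sets aside, its adjusted p ran from 0.00274 to 0.197 over 22 alternatives.

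Of the 5 probe sets of Fcgr2b, 4 gave the same picture and 1 did not. At day 7 the 4 differed by -1.21, -1.23, -1.43 and -1.22 on the log2 scale and all passed over all 34945 probe sets, while 1447622_at differed by -0.20 ± 0.20 (SE), with a limma adjusted p of 0.853. On 1447622_at the IFNAR-/- arrays were at 0.07, -0.40 and -0.09 at day 7, against 0.28, -0.06 and -0.05 in wildtype arrays, and its day 14 arrays lay between -0.19 and 0.59. It therefore showed neither the genotype gap at day 7 nor the rise to day 14. The mean over 5 probe sets, used above, includes it, so the gene's difference is smaller than on any of the other 4. Probe sets with the suffixes _s and _x can pick up related transcripts, and the sequences of Fcgr2b and Fcgr3 are closely alike in the part outside the cell, so their signals may not be fully separate.

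**Figure D2:**
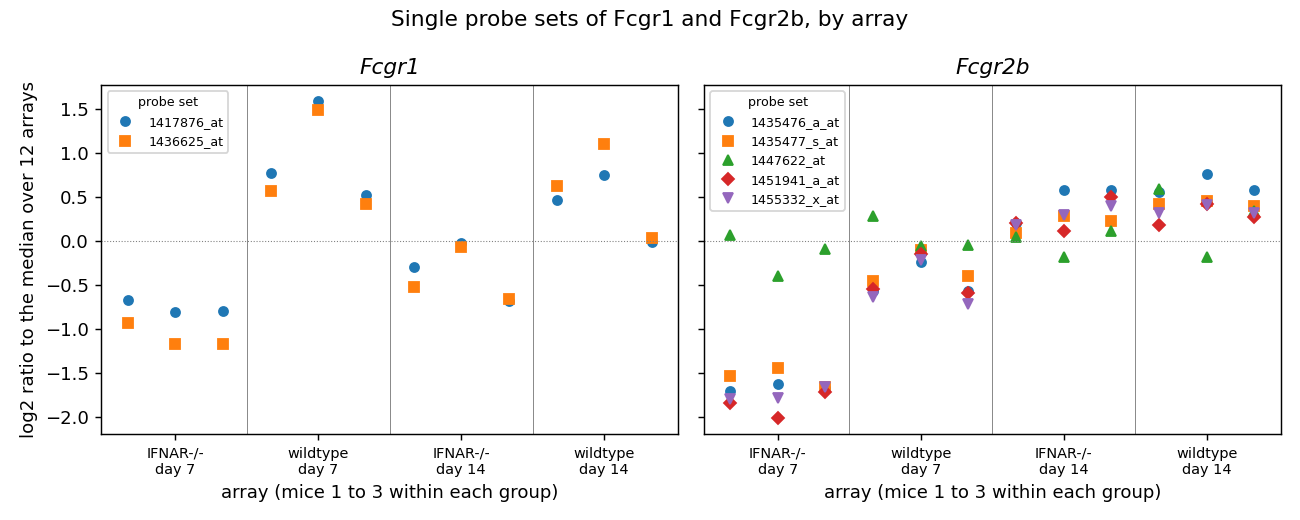
The log2 ratio to the median over 12 arrays is plotted for each probe set of Fcgr1 (left) and Fcgr2b (right), with the 3 mice of each group side by side. Both Fcgr1 probe sets move together, and 4 of the 5 Fcgr2b probe sets lie between -2.02 and -1.45 in IFNAR-/- day 7 arrays, while 1447622_at stays between -0.40 and 0.07 there.

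Fcgr2b is found on B cells as well as on macrophages and dendritic cells. Of 9 measured B cell markers 0 passed at day 7 by limma, and 0 were under an unadjusted p of 0.05, while their median lay between -0.01 and 0.38 in IFNAR-/- arrays, against 0.00 and 0.10 in wildtype arrays. Dendritic cell markers went with Fcgr2b at day 7: 10 of 14 measured markers were lower in IFNAR-/- cells, against 1.35% of all genes. The list's median lay between -0.69 and -0.37 in IFNAR-/- arrays, against 0.09 and 0.38 in wildtype arrays. At day 14 that median lay between 0.03 and 0.40 in IFNAR-/- and between -0.23 and 0.00 in wildtype arrays. There 2 of the 14 were higher in IFNAR-/- cells, against 1.75% of all genes, while Fcgr2b did not pass. Over time in IFNAR-/- cells 8 of the 14 rose, against 4.08% of all genes. In wildtype cells, where Fcgr2b rose with time, 2 of the dendritic cell markers rose and 3 fell. The shares of all genes were 3.88% and 4.10%, and the median of the markers' changes was -0.49. Of 10 interstitial macrophage markers 3 were lower in IFNAR-/- cells at day 7 and 2 at day 14, where 3.29% of all genes were. With time 3 rose and 1 fell in IFNAR-/- cells, where 8.25% of all genes fell, and 2 rose and 0 fell in wildtype cells. The medians of their time changes were 0.70 and 0.21. Of 12 alveolar macrophage markers 0 passed at day 7 by limma, and 6 fell with time in each genotype. The part of dendritic cells or macrophages in the Fcgr2b differences was not tested.

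Fcgr1, which encodes CD64, was at -0.80, -0.99 and -0.99 in IFNAR-/- arrays at day 7, against 0.67, 1.54 and 0.47 in wildtype arrays. At day 14 it was at -0.41, -0.05 and -0.67 in IFNAR-/- arrays, against 0.54, 0.93 and 0.01 in wildtype arrays. The genotypes did not overlap on either day, and the wildtype arrays spread more widely than the IFNAR-/- arrays on both. The log2 difference was -1.82 ± 0.29 (SE) at day 7, a level 0.284 times that of wildtype cells (limma adjusted p 0.00751), and -0.87 ± 0.29 at day 14 (adjusted p 0.109). Averaged over both days it was -1.34 ± 0.20, with an adjusted p of 0.00547. Both probe sets gave this, at -1.71 ± 0.28 and -1.92 ± 0.31 at day 7. The day 7 call passed in each of the 6 fits that left out 1 array, with adjusted p between 0.00691 and 0.0390.

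The genotype difference of Fcgr1 changed between days by 0.95 ± 0.41 (SE), which did not pass (limma adjusted p 0.248), so the days are not shown to differ. Nor did its changes with time pass. Day 14 minus day 7 was 0.55 ± 0.29 in IFNAR-/- cells (adjusted p 0.231), whose arrays did not overlap between days, and -0.40 ± 0.29 in wildtype cells (adjusted p 0.476). Monocyte markers at day 7 had a median between -0.03 and 0.14 in IFNAR-/- arrays, against 0.06 and 0.29 in wildtype arrays, with 1 of 11 lower. Interstitial macrophage markers had a median between -0.65 and -0.17 in IFNAR-/- arrays, against -0.37 and 0.28 in wildtype arrays, with 3 of 10 lower. Of all genes, 1.35% were lower at day 7. The part of either cell type in the Fcgr1 difference was not tested.

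Fcgr3, the low-affinity activating receptor, moved less. It was at -0.38, -0.66 and -0.44 in IFNAR-/- arrays at day 7, against -0.01, 0.03 and -0.30 in wildtype arrays, and at 0.04, -0.13 and 0.06 in IFNAR-/- arrays at day 14, against 0.00, 0.35 and 0.22 in wildtype arrays. The genotypes were separate at day 7 and overlapped at day 14. The differences were -0.40 ± 0.13 (SE) at day 7 and -0.20 ± 0.13 at day 14, with limma adjusted p of 0.157 and 0.425. Day 14 minus day 7 was 0.48 ± 0.13 in IFNAR-/- cells, a 1.40-fold rise (adjusted p 0.0347), and 0.29 ± 0.13 in wildtype cells (adjusted p 0.224). The rise in IFNAR-/- cells passed in 1 of the 6 fits that left out an array, the one without IFNAR-/- day 14 mouse 2. In the other 5 it was between 0.40 and 0.54, with adjusted p between 0.0621 and 0.111. Over its 17 alternatives the adjusted p ran from 0.00540 to 0.111.

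Fcgr4, the activating receptor of monocytes, macrophages and neutrophils, was at 0.21, 0.36 and -0.24 in IFNAR-/- arrays at day 7, against 0.43, 1.08 and 0.36 in wildtype arrays. At day 14 it was at -0.42, 0.15 and -0.95 in IFNAR-/- arrays, against -0.21, -0.57 and -1.37 in wildtype arrays. The genotypes nearly touched at day 7 and overlapped at day 14, and the spread within groups was wide. The genotype differences were -0.52 ± 0.34 (SE) and 0.31 ± 0.34, and neither passed (limma adjusted p 0.626 and 0.664). With time it fell by 1.34 ± 0.34 in wildtype cells, to 0.395 times the day 7 level (adjusted p 0.0343). In IFNAR-/- cells the change was -0.52 ± 0.34 (adjusted p 0.325). The difference between these time changes, 0.82 ± 0.48, did not pass (adjusted p 0.402).

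The fall of Fcgr4 in wildtype cells passed in 1 of the 6 fits that left out an array, the one without wildtype day 14 mouse 1. Without wildtype day 7 mouse 1, 2 or 3 it was -1.43, -1.11 or -1.47, and without wildtype day 14 mouse 2 or 3 it was -1.41 or -1.01, with limma adjusted p between 0.0567 and 0.122. Monocyte markers moved with it: 5 of 11 fell in wildtype cells, against 4.10% of all genes. Their median lay between -0.79 and -0.70 in wildtype arrays at day 14, against 0.06 and 0.29 at day 7. In IFNAR-/- arrays that median lay between -0.01 and 0.25 at day 14, against -0.03 and 0.14 at day 7. Alveolar macrophage markers also fell in wildtype cells, 6 of 12, with a median change of -1.44, beside -1.01 for monocyte markers. In IFNAR-/- cells, where Fcgr4 did not pass, 6 of these 12 fell too, against 8.25% of all genes. Of 10 neutrophil markers 0 passed in wildtype cells by limma, with a median change of -0.08. Of 10 interstitial macrophage markers 2 rose and 0 fell there. The 5' over 3' signal of control genes, a sign of RNA integrity, also moved, between -0.91 and -0.18 in wildtype arrays at day 14, against 0.08 and 0.18 at day 7. With it as a covariate Fcgr4 differed by -1.08 ± 0.46 (adjusted p 0.342), and with the poly-A spike-in signal by -1.01 ± 0.51 (adjusted p 0.341). Over the 17 alternatives the adjusted p ran from 0.00773 to 0.342. The part of monocytes, macrophages or neutrophils in the result was not tested.

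Fcer1g, the signalling gamma chain of the activating receptors, stayed within a narrow band. It was at -0.02, 0.07 and -0.04 in IFNAR-/- arrays at day 7, against 0.03, 0.30 and 0.04 in wildtype arrays, and at 0.11, 0.14 and -0.15 in IFNAR-/- arrays at day 14, against -0.04, -0.14 and -0.40 in wildtype arrays. The genotypes overlapped on both days. Its genotype differences were -0.12 ± 0.13 (SE) at day 7 and 0.23 ± 0.13 at day 14, with limma adjusted p of 0.841 and 0.338. With time it changed by 0.03 ± 0.13 in IFNAR-/- cells (adjusted p 0.886) and by -0.31 ± 0.13 in wildtype cells (adjusted p 0.167), where the days did not overlap.

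Fcgrt, the heavy chain of the neonatal Fc receptor, went the other way from Fcgr1 and Fcgr2b. It was at 1.51, 1.45 and 1.88 in IFNAR-/- arrays at day 7, against -0.41, 0.02 and 0.72 in wildtype arrays. At day 14 it was at 0.24, -0.79 and -0.04 in IFNAR-/- arrays, against -0.69, -0.72 and -1.65 in wildtype arrays. The genotypes were separate at day 7, and at day 14 IFNAR-/- mouse 2 lay within the wildtype range. The log2 difference at day 7 was 1.51 ± 0.35 (SE), a 2.84-fold higher level with a limma adjusted p of 0.0457. At day 14 it was 0.82 ± 0.35 (adjusted p 0.207), and averaged over both days it was 1.16 ± 0.25 (adjusted p 0.0245). The change of the difference between days was -0.68 ± 0.49 and did not pass (adjusted p 0.515). With the 5' to 3' covariate the day 14 difference was 0.27 ± 0.42 (adjusted p 0.874), and the average over both days, at 1.00 ± 0.23, did not pass (adjusted p 0.0550).

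The day 7 call of Fcgrt was close to the threshold. It passed in 1 of the 6 fits that left out an array, without wildtype day 7 mouse 3, at 1.81 and a limma adjusted p of 0.0227. Without IFNAR-/- day 7 mouse 1, 2 or 3 it was 1.56, 1.59 or 1.37, and without wildtype day 7 mouse 1 or 2 it was 1.24 or 1.46, with adjusted p between 0.102 and 0.159. Over its 17 alternatives the adjusted p ran from 0.00487 to 0.159. The average over both days passed in 6 of its 12 fits with an array left out. It did not pass without IFNAR-/- day 7 mouse 1 or 3, wildtype day 7 mouse 1 or 2, or IFNAR-/- day 14 mouse 1 or 3, where it lay between 1.03 and 1.19 with adjusted p between 0.0537 and 0.0602.

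With time Fcgrt fell by 1.81 ± 0.35 (SE) in IFNAR-/- cells, to 0.285 times the day 7 level (limma adjusted p 0.00780), and it passed in each fit without 1 array. Without both arrays that stood apart the change was -1.38 ± 0.38, with an adjusted p of 0.0667, and over the 17 alternatives the adjusted p ran from 0.00195 to that value. In wildtype cells the change was -1.13 ± 0.35, without overlap between the days but with an adjusted p of 0.0737. It passed with array weights (-1.03, adjusted p 0.0462), without both arrays that stood apart (-1.13, 0.0429) and among genes above the median SD (-1.13, 0.0455), and it was -0.58 ± 0.41 with the 5' to 3' covariate (0.642). Alveolar macrophage markers were arranged in the same order of groups. Their median over 12 measured genes lay between 0.92 and 1.09 in IFNAR-/- arrays at day 7, against -0.08 and 0.75 in wildtype arrays, and between -0.67 and 0.04 in IFNAR-/- arrays at day 14, against -1.34 and -0.59 in wildtype arrays. Of these 12 markers 0 passed between genotypes at day 7 by limma, where 4 were under an unadjusted p of 0.05, against 13.8% of all genes. At day 14, 3 were higher in IFNAR-/- cells, against 1.75% of all genes. With time 6 fell in each genotype, against 8.25% of all genes in IFNAR-/- and 4.10% in wildtype cells. The part of alveolar macrophages in the Fcgrt differences was not tested.

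**Figure D3:**
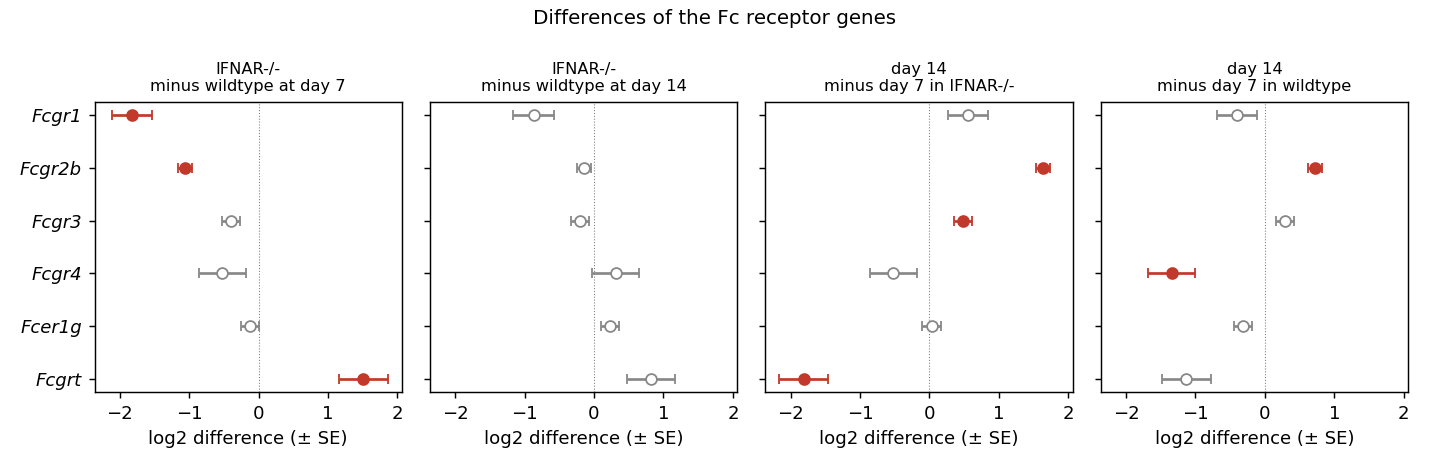
Log2 differences with their limma standard errors are shown for the 6 genes in 4 comparisons; filled red points passed an adjusted p of 0.05 and open grey points did not. At day 7 Fcgr1 at -1.82 and Fcgrt at 1.51 lie at opposite ends, and with time Fcgr2b lies above 0 and Fcgrt below 0 in both genotypes.

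Averaged over both days, 3 of the 6 genes passed, where 4.19% of all genes did: Fcgr1 and Fcgr2b were lower, against 2.49% of all genes, and Fcgrt was higher in IFNAR-/- cells, against 1.70%. Fcgr2b differed by -0.60 ± 0.07 (SE), with a limma adjusted p of 0.00165, which became 0.0663 with quantile normalization (-0.43) and 0.0903 with a trended and robust prior. For Fcgr1 and Fcgr2b the genotypes did not overlap on either day in the same direction, against 3.37% of all genes. From day 7 to day 14, 3 of the 6 passed in IFNAR-/- cells, where 12.3% of all genes did: Fcgr2b and Fcgr3 rose, against 4.08% of all genes, and Fcgrt fell, against 8.25%. The days did not overlap for 4 of the 6 in IFNAR-/- cells, against 34.0% of all genes. In wildtype cells 2 of the 6 passed, where 7.98% of all genes did: Fcgr2b rose, against 3.88% of all genes, and Fcgr4 fell, against 4.10%. The days did not overlap for 4 of the 6 in wildtype cells, against 31.1% of all genes. The median time change of the 6 genes was 0.26 in IFNAR-/- and -0.36 in wildtype cells, beside 0.024 and 0.019 over all genes.

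The activating receptors were also set against Fcgr2b within each array. The mean log2 ratio of Fcgr1, Fcgr3 and Fcgr4 minus that of Fcgr2b was 1.04, 1.03 and 0.80 in IFNAR-/- arrays at day 7, against 0.75, 1.03 and 0.64 in wildtype arrays. At day 14 it was -0.41, -0.23 and -0.88 in IFNAR-/- arrays, against -0.30, -0.13 and -0.76 in wildtype arrays. All 6 arrays of day 14 lay below all 6 of day 7, and the genotypes overlapped on both days. The activating mean by itself was -0.32, -0.43 and -0.56 in IFNAR-/- arrays at day 7, and -0.27, -0.01 and -0.52 at day 14. In wildtype arrays it was 0.36, 0.88 and 0.18 at day 7, and 0.11, 0.24 and -0.38 at day 14. This mean overlapped between days in both genotypes, while Fcgr2b was higher in every day 14 array than in any day 7 array. The single receptors did not follow each other between genotypes. At day 7 Fcgr3 minus Fcgr2b lay between 0.80 and 0.98 in IFNAR-/- arrays, above the 0.17 to 0.37 of wildtype arrays, while Fcgr1 minus Fcgr2b lay between 0.37 and 0.56 in IFNAR-/- arrays, below the 0.93 to 1.69 of wildtype arrays. These values describe the genes tested above and carry no test of their own. They are differences of ratios and do not say which receptor was more abundant.

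**Figure D4:**
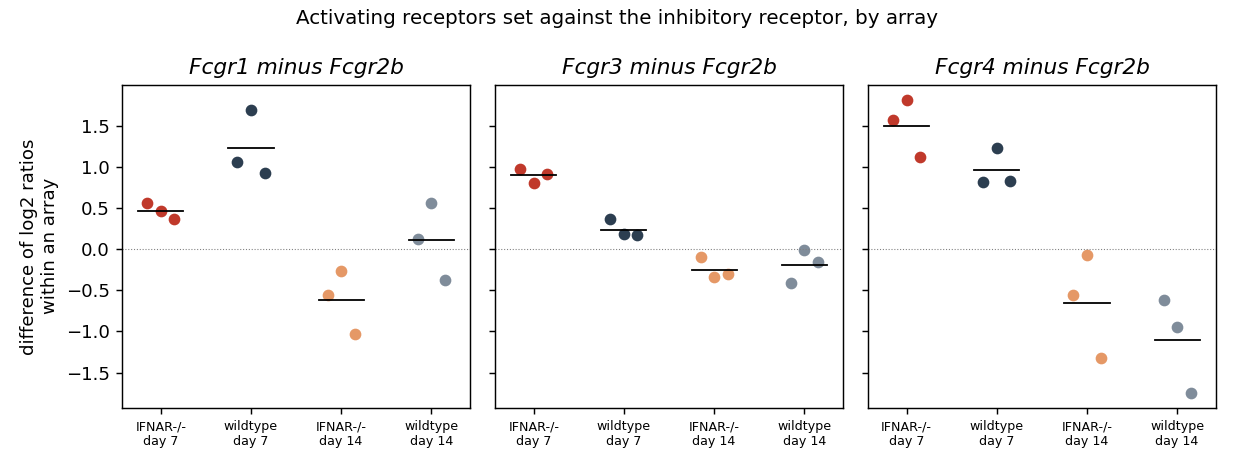
Each point is the difference within 1 array between the log2 ratio of an activating receptor gene and that of Fcgr2b, with a line at the mean of 3 arrays. For Fcgr3 the IFNAR-/- day 7 arrays lie highest, between 0.80 and 0.98, and for Fcgr1 the wildtype day 7 arrays do, between 0.93 and 1.69.

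Over the 12 arrays, which fall into the 4 groups, the genes whose log2 ratios followed each receptor most closely were ranked by Pearson's r as a description. They were Nmi (r = 0.935), Usp18 (0.930) and Slfn8 (0.915) for Fcgr1, and Jak2, 4933412O06Rik and Ifi30 (each 0.964) for Fcgr2b. For Fcgr3 they were Prnp (0.976), Jak2 (0.953) and Srgn (0.945), and for Fcgr4 Mafk (0.899), Fuca2 (0.886) and Lgals3bp (0.875). For Fcer1g they were Itpka (0.895), Acot8 (0.890) and Cfb (0.887), and for Fcgrt Tmem150b (0.977), Brat1 (0.962) and Pla2g15 (0.953). All genes share the same 12 arrays and their normalization.

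Genes around the receptors were read from 7 lists, not counting the 6 receptors. Of all genes, 1.29% were called higher and 1.35% lower in IFNAR-/- cells at day 7, and 1.75% higher and 3.29% lower at day 14. Other measures also differed between the genotypes at day 14. Of 11 monocyte markers 4 were higher in IFNAR-/- cells, with a median difference of 0.84. Of 10 T cell markers 6 were higher, with a median difference of 0.89. The 5' over 3' signal lay between 0.06 and 0.16 in IFNAR-/- arrays, against -0.91 and -0.18 in wildtype arrays, and with it as a covariate 37 of all genes were called at day 14, against 917 without it. In wildtype arrays at day 7 the signal lay between 0.08 and 0.18. With the signal as a covariate 154 of all genes were called over time in wildtype cells, against 1451 without it. For the change between days 3 of all genes were called with it, against 451. The list counts between genotypes at each day were also taken with that covariate and without both arrays that stood apart. That was a choice made after seeing the data. Time changes and changes between days in the lists are given without the covariate. The part of monocytes and T cells in the list counts was not tested.

 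Among 10 measured genes of other Fc and immunoglobulin receptors, 0 passed between genotypes at either day by limma, with 2 under an unadjusted p of 0.05 at day 7, where 13.8% of all genes were, and 0 at day 14. The mast cell and basophil IgE receptor chains Fcer1a and Ms4a2 differed at day 7 by -0.10 ± 0.17 (SE) and 0.00 ± 0.11. In wildtype cells Fcrla, an Fc receptor-like protein of B cells, rose by 1.00 ± 0.22 with time, and Trim21, a cytosolic antibody receptor, fell by 0.82 ± 0.22. The list median between genotypes was -0.03 at day 7 and 0.04 at day 14.

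Of 14 measured gamma chain partners, ITAM adaptors and related receptors, 2 were lower in IFNAR-/- cells at day 7, against 1.35% of all genes. At day 14, 3 were higher, against 1.75%, and the list medians were -0.11 and 0.23. The fungal receptor Clec7a (dectin-1) and Clec5a, both among the related receptors, were lower by 0.85 ± 0.09 (SE) and 1.67 ± 0.25 at day 7. The gamma chain partners Clec4n (dectin-2) and Clec4e (Mincle) were higher in IFNAR-/- cells at day 14, by 1.40 ± 0.23 and 2.32 ± 0.41. Clec5a was higher there by 1.10 ± 0.25 (limma adjusted p 0.0102, 0.0128 and 0.0314). With time Clec4n, Clec4e and Clec5a changed by -0.36, -0.16 and 2.47 in IFNAR-/- cells. In wildtype cells they changed by -1.53, -1.35 and -0.29. The genotype difference changed between days for Clec7a by 0.97 ± 0.12, for Clec5a by 2.77 ± 0.35 and for Cd247, the zeta chain of T and NK cell receptors, by 0.74 ± 0.16. The adaptor Tyrobp (DAP12) did not pass, at 0.05 ± 0.10 and 0.01 ± 0.10. With the 5' to 3' covariate the 2 lower genes at day 7 passed and 0 of the list were higher at day 14 by limma. Without both arrays that stood apart 2 were higher at day 14, Clec4e and Clec4n.

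Of 23 measured genes of the activating signal, 1 was lower in IFNAR-/- cells at day 7 and 2 were higher at day 14. The list medians were -0.06 and 0.13. The Src-family kinase Fyn was lower by 0.92 ± 0.15 (SE) at day 7. The kinase Syk, which binds the ITAM of the gamma chain, was higher by 1.00 ± 0.18 at day 14 (limma adjusted p 0.0130). The phospholipase Plcg2 was higher there by 0.39 ± 0.09. Syk fell with time in wildtype cells by 1.10 ± 0.18. With the 5' to 3' covariate Fyn passed at day 7 and 0 of the list at day 14. Of 15 measured genes of the inhibitory signal, 0 passed at day 7 by limma, where 7 were under an unadjusted p of 0.05, against 13.8% of all genes. Without both arrays that stood apart Siglece was higher in IFNAR-/- cells at day 7. Sirpa, an ITIM receptor for CD47, was higher by 1.13 ± 0.27 at day 14, and did not pass with the covariate. Inpp5d, which encodes SHIP1, differed by 0.02 ± 0.13 at day 7 and 0.42 ± 0.13 at day 14 and passed at neither. The genotype difference of the phosphatase gene Ptpn6 changed between days by 0.79 ± 0.17 (adjusted p 0.0344).

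Of 18 measured genes of phagocytosis and the oxidative burst, 1 was lower in IFNAR-/- cells at day 7 and 4 were higher at day 14. The list medians were 0.06 and 0.15. The scavenger receptor Msr1 was lower by 1.25 ± 0.28 (SE) at day 7. At day 14 the NADPH oxidase genes Cybb and Ncf1 were higher by 2.20 ± 0.22 and 1.48 ± 0.25 (limma adjusted p 0.000995 and 0.0104). Vasp and Elmo1, both regulators of the actin skeleton, were higher by 1.00 ± 0.17 and 0.70 ± 0.17. In wildtype cells 6 of the 18 fell with time, against 4.10% of all genes, and Cybb fell by 2.87 ± 0.22. With the 5' to 3' covariate 1 of the 18 was higher in IFNAR-/- cells at day 14, Cybb. Without both arrays that stood apart 4 were higher there, Cybb, Ncf1, Vasp and Itgb2, and Msr1 did not pass at day 7. The monocyte median at day 14 lay between -0.01 and 0.25 in IFNAR-/- arrays, against -0.79 and -0.70 in wildtype arrays.

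Of 14 genes around the neonatal receptor, Ehd1 was higher by 1.06 ± 0.24 (SE) in IFNAR-/- than in wildtype cells at day 7. It encodes an endosomal recycling protein. At day 14 Cd1d1 was higher by 1.33 ± 0.20 and Hfe was lower by 1.41 ± 0.26. Both are relatives of Fcgrt that pair with beta-2 microglobulin. B2m itself differed by -0.18 ± 0.10 and 0.22 ± 0.10 and passed on neither day. The list medians were -0.11 at day 7 and -0.04 at day 14. With the 5' to 3' covariate Cd1d1 passed and Ehd1 and Hfe did not. Without both arrays that stood apart Ehd1 and Vps35 were also higher at day 14.

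Of 10 measured interferon gamma targets, 2 were lower in IFNAR-/- cells at day 7 and 2 were higher at day 14. The list medians were -1.19 and 0.79. Socs1 and Cxcl9 were lower by 1.96 ± 0.28 and 2.64 ± 0.52 at day 7. Ciita and Cxcl9 were higher by 0.94 ± 0.22 and 2.18 ± 0.52 at day 14. The genotype difference changed between days for 3 of these 10, Cxcl9, Ciita and Socs1, by 4.82 ± 0.74, 1.62 ± 0.30 and 2.07 ± 0.40. Of all genes, 2.48% passed this test, and 1.14% did so upward. With the 5' to 3' covariate 3 of all genes passed it, against 451 without the covariate. With the 5' to 3' covariate 1 of the 10 was lower at day 7, Socs1, and 0 were higher at day 14 by limma. Without both arrays that stood apart 5 were lower at day 7 and 1 was higher at day 14, Ciita. Markers of T cells and NK cells, which make interferon gamma, moved alongside. The T cell median at day 7 lay between -0.82 and -0.31 in IFNAR-/- arrays, against -0.09 and 0.42 in wildtype arrays, and at day 14 between 0.30 and 1.08 in IFNAR-/- arrays, against -0.40 and 0.05 in wildtype arrays. The NK cell median at day 7 lay between -0.62 and -0.33 in IFNAR-/- arrays, against 0.13 and 0.69 in wildtype arrays, and at day 14 between -0.12 and 0.72 in IFNAR-/- arrays, against -0.46 and -0.02 in wildtype arrays. The genotype difference changed between days for 5 of 10 T cell and 3 of 8 NK cell markers, all upward, against 1.14% of all genes. The median changes were 1.44 and 1.74. The part of T cells and NK cells in the change of the interferon gamma targets was not tested.

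**Figure D5:**
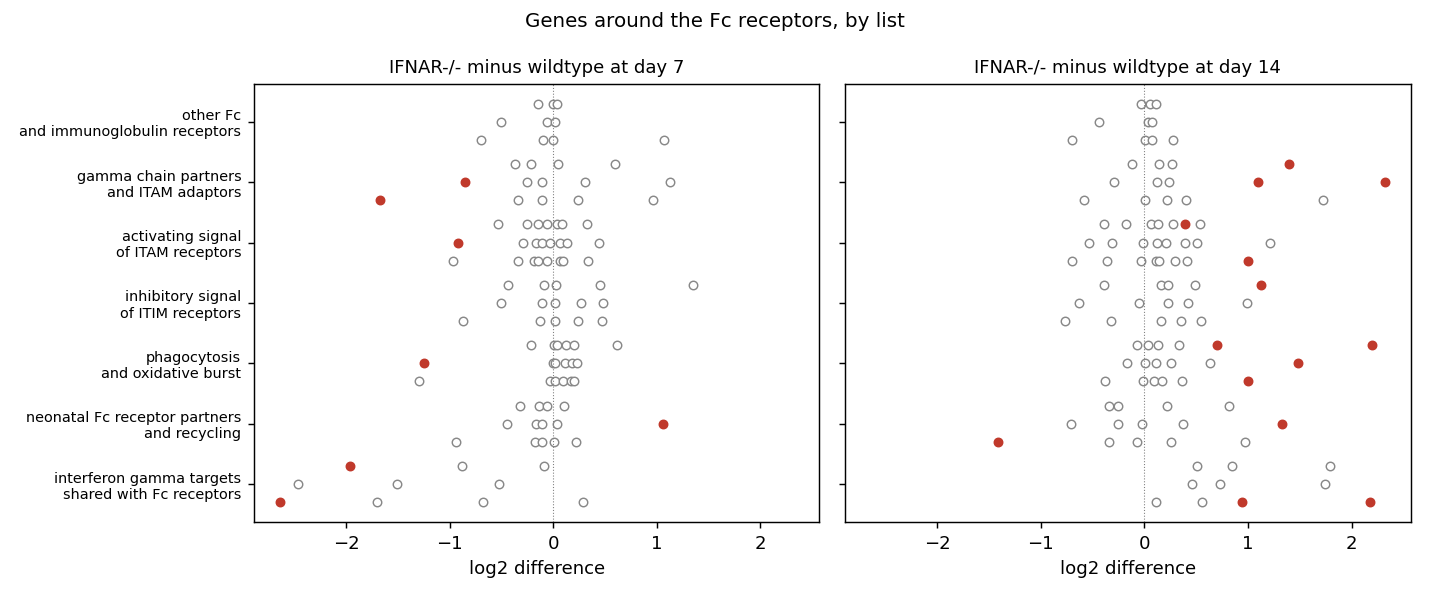
Log2 differences of IFNAR-/- minus wildtype are plotted for the measured genes of 7 lists at day 7 (left) and day 14 (right); filled red points passed an adjusted p of 0.05, and height within a list only separates points. At day 14 Clec4e at 2.32 and Cybb at 2.20 are among the points farthest to the right.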

How the data were processed

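RNA of CD11c+ lung cells from 12 mice was measured on 1 Affymetrix array each; precision is limited by how few arrays there are. RMA was named without a version, per the submitters' processing notes. The deposited values are linear ratios of a probe set to its median over the 12 arrays, which is not stated but was read from the values (median within 0.02 of 1 for 100% of 45101 probe sets). Their log2 was taken with nothing normalized again. Ratios allow no filter on dim probe sets.

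Probe sets with 1 symbol (34945, of which 34741 matched the GRCm38.p6 gene table) were averaged into 18193 genes. Control probe sets (64) and those with no symbol (9160) or several (932) were left out. A model with 1 mean per group was fitted with limma 3.58.1 in R 4.3.3 (8 residual degrees of freedom, prior of 3.21), two-sided, with Benjamini-Hochberg adjustment over all genes and a threshold of 0.05. Comparisons share arrays and 1 estimate of the spread. The fit was tested on simulated data. The 5' over 3' signal came from 2 actin and Gapdh probe sets of each kind, and the poly-A signal from 24 spike-in probe sets. The p-values set each difference against the spread between arrays within groups, pooled over the 4 groups and drawn toward the prior. With 1 array per mouse, that spread holds differences between mice and between preparations, which cannot be told apart.

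The 6 genes, the lists and the tests were chosen with earlier results of these data known. The receptors were named in every comparison, with up to 4 genes of lowest p of a list's calls and the 3 genes of highest correlation with each receptor. Genes given without a call, and the selection among calls, were chosen after their values were seen. Alternatives were quantile normalization, median subtraction, single probe sets, the probe set of largest SD, a trended and robust prior, array weights, a block by mouse number, subsets of arrays, covariates, genes above the median SD and a 2-fold minimum.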

Additional observations from a re-analysis of the deposited data

Results flagged for a closer look

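Fcgr2b stood out because its genotype difference was not the same at both days by a direct test. The difference, IFNAR-/- minus wildtype, was -1.06 ± 0.10 (SE) on the log2 scale at day 7 and -0.15 ± 0.10 at day 14, a change of 0.91 ± 0.15 with a limma adjusted p of 0.0134. It passed in each of the 12 fits that left out 1 array, with adjusted p between 0.0128 and 0.0410. It did not pass with quantile normalization (0.68, limma adjusted p 0.133) or with a trended and robust prior (0.197). Nor did it pass with the 5' to 3' covariate (0.196) or the poly-A covariate (0.0524). On probe set 1447622_at alone it was -0.06 ± 0.28.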

How the results depend on the processing

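The 36 differences (6 genes in 6 comparisons) had 732 alternative values. Of these 673 kept their side of the threshold: 662 with the reported sign, 9 with the opposite sign and 2 at 0 after rounding. The 9 were uncalled values of Fcgr4 at day 14 and over both days and of Fcer1g over time in IFNAR-/- cells, between -0.05 and 0.03. Of the rest 50 lost a call, 8 gained a call and 1 turned the sign of a called value, Fcgr2b's change between days on 1447622_at alone, at -0.06 against 0.91; the cause was not tested. The number of the 6 genes called at day 14 was 1 with array weights and 1 with the mouse number as a replicate block, against 0, Fcgr1 in both (adjusted p 0.0254 and 0.0462). It was 0 whichever array was left out. Averaged over both days it was 1 with repeated quantile normalization, against 3. In IFNAR-/- cells over time it was 1 without both arrays that stood apart, against 3. In wildtype cells over time it was 1 with a trended and robust prior, either covariate or a 2-fold minimum, against 2, and between 1 and 2 with an array left out. For the change between days it was 0 with quantile normalization, a trended and robust prior, either covariate or a 2-fold minimum, against 1.

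Mouse numbers did not pair the arrays: correlations of same-numbered arrays around their group means ran from -0.40 to 0.23. Apart from Fcgr1 at day 14, the replicate block removed the day 7 call of Fcgrt (adjusted p 0.0790) and the rise of Fcgr3 in IFNAR-/- cells (0.0624). Over the alternatives the number of all genes called ran from 210 to 1882 at day 7 (481 as reported), 37 to 1899 at day 14 (917), 181 to 2221 for both days (762), 705 to 4576 over time in IFNAR-/- cells (2244), 154 to 2688 in wildtype cells (1451) and 3 to 1765 for the change between days (451). Array weights gave the highest number in each, and the lowest at day 14, in wildtype cells over time and for the change between days came with the 5' over 3' covariate. Signal over background is not known from ratios.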
